A study of Mus musculus with 6 samples.

Results

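Mitosis and G2/M genes, which encode the machinery that takes a cell from the end of DNA replication through chromosome segregation to division, were followed on 6 Affymetrix expression arrays of mouse cells. The genes were chosen as a list of 35 symbols, each read from its brightest probe set that the annotation ties to that symbol alone. The deposited table held 34 of them among 22180 genes, each with 1 probe set, and Ccnb1 was not analysed here. The arrays covered embryonic fibroblasts (MEFs, connective tissue cells grown from embryos), the same kind of cells 3, 7 and 14 days after induction toward parvalbumin neurons (iPV, a fast-firing inhibitory class), GFP-positive cells sorted from the day 14 stage, and a sample labelled as endogenous parvalbumin neurons. All 6 samples carried the labels C57BL/6 strain, PV-GFP transgenic genotype and 13.5 day embryos. The labels also gave every sample, the MEFs and the endogenous neurons included, the same culture in D10 medium and the same adenovirus infection, did not name the factors the virus carried, and did not say how many animals or cultures went into a sample.

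Each group was 1 array, so no replicate error exists, no test was run, and a difference below compares those arrays and not the conditions. Values are deposited log2 intensities, in which 1 unit is a 2-fold difference. Values below 5.01, the median of all probe sets other than controls, were set to that floor before differences were taken, so a fold against a floored value is given as "at least". A difference of 2-fold or more was counted. As a measure of technical error, the differences given by the brightest pair of probe sets of a gene spread with an SD of 0.28 to 0.50 log2 units, depending on the comparison, over 328 to 404 genes with such a pair. Both probe sets of a pair had to be above the floor on both arrays, and the SD given is divided by the square root of 2. No member had such a pair, and some members lay under the floor, where this spread was not measured. The spread is an error of measurement within an array pair and holds nothing of the spread between cultures.

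In a dividing cell, the kinase Cdk1 pairs with A- and B-type cyclins to start mitosis, and the Aurora and Polo-like kinases build the spindle that captures chromosomes at their kinetochores. Checkpoint kinases hold back anaphase until every chromosome is attached. Cdc20 then activates the anaphase-promoting complex (APC/C), a ubiquitin ligase, to destroy cyclin B and free separase. Transcripts of these genes are low in resting and early cycling cells and peak in G2 and M, whereas neurons have left the cell cycle. Many of their promoters carry a CHR element, bound by the MuvB core of the DREAM repressor in resting cells and of activating complexes with B-Myb and Foxm1 in G2, next to CCAAT boxes bound by NF-Y.

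The labelled cell types were first set against their markers. All 9 fibroblast markers were above the floor on all 6 arrays, and the log2 of their summed level lay between 14.2 and 14.9, with 14.9 on the labelled endogenous array. Of the 4 parvalbumin and GABA neuron markers, 1 to 3 were above the floor on an array, and their summed level lay between 7.02 and 7.33, with 7.02 on the labelled endogenous array and 7.21 in the sorted cells. The markers therefore did not bear out the label of the endogenous sample, which is called the labelled endogenous array throughout. That array had 3 of the 4 parvalbumin and GABA markers above the floor. The sorted cells had 1, Pvalb at 6.29, with Gad1, Gad2 and Slc32a1 under the floor, and their fibroblast markers summed to 14.5. The GABA markers thus did not bear out the neuron label of the sorted cells either. The 8 neuron markers summed to 9.89 in the sorted cells and to between 8.92 and 9.35 on the others. Against the unsorted day 14 cells, 5 of the 8 were higher in the sorted cells. Stmn2 (-0.57) and Rbfox3 (-0.28) were lower there, and Dcx was under the floor on every array. Macrophage markers, of which Ptprc was below the floor on every array, summed to 10.8 in MEFs, 8.52 at day 3, 9.40 at day 7, 9.38 at day 14, 8.56 in the sorted cells and 11.1 on the labelled endogenous array, and 5 to 7 of the 8 were above the floor on each array. In bulk samples such as these, fewer cells of a type and less RNA per cell cannot be told apart.

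The 34 genes had 1 feature in common: MEFs and day 7 were the 2 highest arrays for 34 of 34 members, against 1715 of all 22180 genes (7.73%). The highest array was the MEFs for 17 members and day 7 for the other 17. The lowest was day 3 for 13, day 14 for 10, the sorted cells for 9 and the labelled endogenous array for 2. The median level of the members was 6.85 in MEFs, 5.75 at day 3, 6.87 at day 7, 5.80 at day 14, 5.88 in the sorted cells and 6.08 on the labelled endogenous array. No member was at or under the floor in MEFs or at day 7, whereas 8 were at day 3, 6 at day 14, 6 in the sorted cells and 5 on the labelled endogenous array. In all, 24 members stayed above the floor on all 6 arrays. The members were thus high in MEFs, low at day 3, near their MEF levels at day 7 and low again at day 14.

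**Figure D1:**
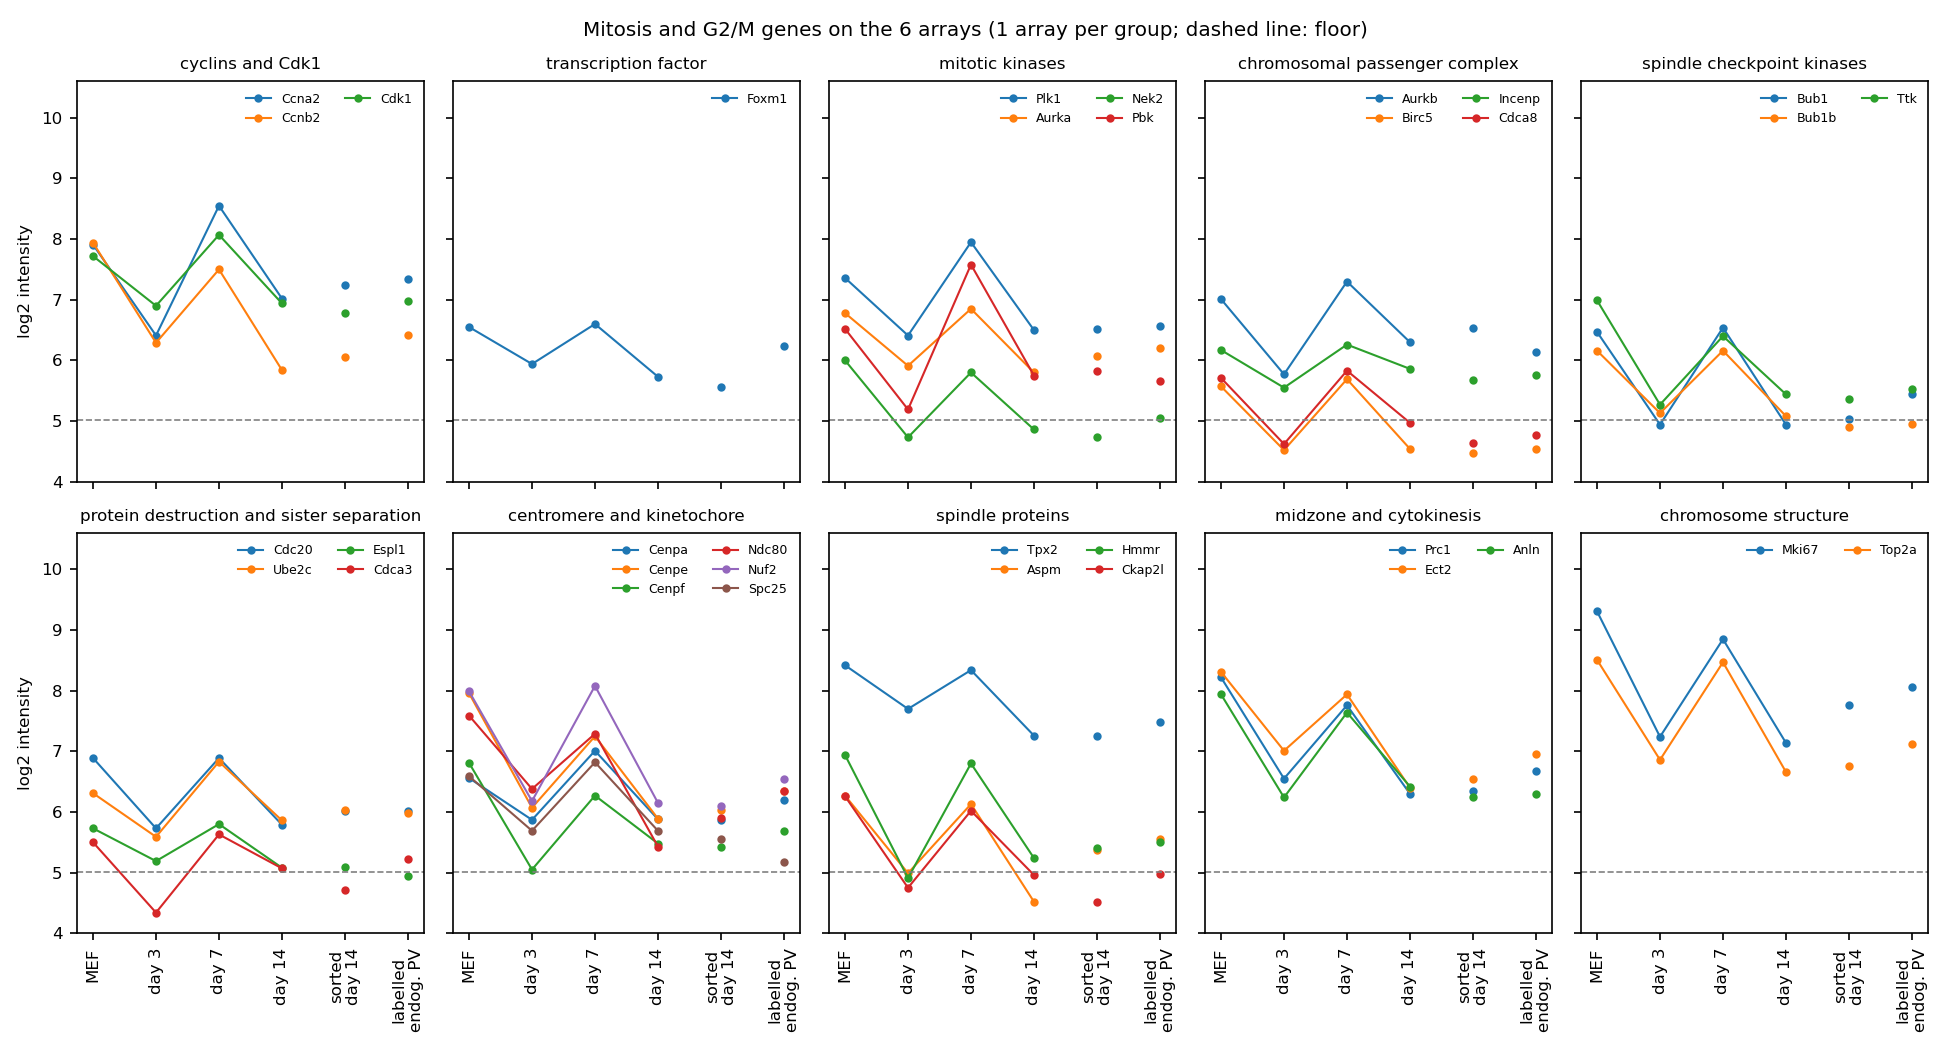
Deposited log2 intensity (y axis) of the 34 mitosis and G2/M genes on the 6 arrays (x axis), 1 panel per role and 1 colour per gene, with lines joining MEFs and the unsorted induction days; every point is 1 array and the dashed line is the floor of 5.01. MEFs and day 7 stand above the other 4 arrays for all 34 genes.

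Between MEFs and day 3, 20 of the 34 members were at least 2-fold lower and 0 were higher, where 1.64% of all genes were at least 2-fold lower. The median member difference was -1.22, from -2.07 for Mki67 to -0.48 for Cdca3, whose day 3 value lay under the floor. From day 3 to day 7, 23 members were at least 2-fold higher and 0 lower, against 1.3% of all genes higher. The median was 1.15, from 0.61 for Espl1 to 2.39 for Pbk. From day 7 to day 14, 23 were at least 2-fold lower and 0 higher, against 0.825% of all genes lower. There the median was -1.12, from -0.41 for Incenp to -1.92 for Nuf2. All 34 members were above the floor on at least 1 of the 2 arrays in each step. Among all genes of that kind the shares were 2.7%, 2.14% and 1.37% in turn. In each of these 3 steps the difference of every one of the 34 members exceeded the technical spread of that step, which was 0.32, 0.33 and 0.28 in turn, and 29, 31 and 33 members exceeded it by a factor of 2 or more. The median over all genes was 0 in each step, but genes under the floor on both arrays differ by 0, so this cannot show that no array-wide shift exists. Over genes above the floor on at least 1 of the 2 arrays it was 0.021, 0.004 and 0.053. Day 3 and day 7 each enter 2 of these steps, so the steps are not independent of one another: a single array with low or high readings would move both steps it enters in opposite directions. The macrophage markers were also lower at day 3 than in MEFs, 5 of 8 at least 2-fold, and 2 of 8 were at least 2-fold higher at day 7 than at day 3. Fibroblast markers were mixed. At day 3, 6 of 9 were lower and 3 higher than in MEFs, with 4 down by 2-fold or more and 1 up (median -0.90). From day 3 to day 7, 6 rose and 3 fell, and 2 of 9 were at least 2-fold higher (median 0.64). Thy1, a surface protein of fibroblasts, differed by -1.90 and then 2.33, and Col1a2, a collagen chain, by -1.31 and then 0.95. Fap, the fibroblast marker with the largest absolute difference at day 3, went the other way, by 2.04 and then -0.01. Between day 7 and day 14 the summed macrophage level stood at 9.40 and 9.38. Of its 8 markers 4 were higher at day 14 and 3 lower, from -0.70 for Cd14 to 0.47 for Cd68. Of the 9 fibroblast markers 0 passed 2-fold, 7 were lower and 2 higher (median -0.14), with the lowest difference, -0.87, for Col3a1. The part of either marker list in the result was not tested.

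**Figure D2:**
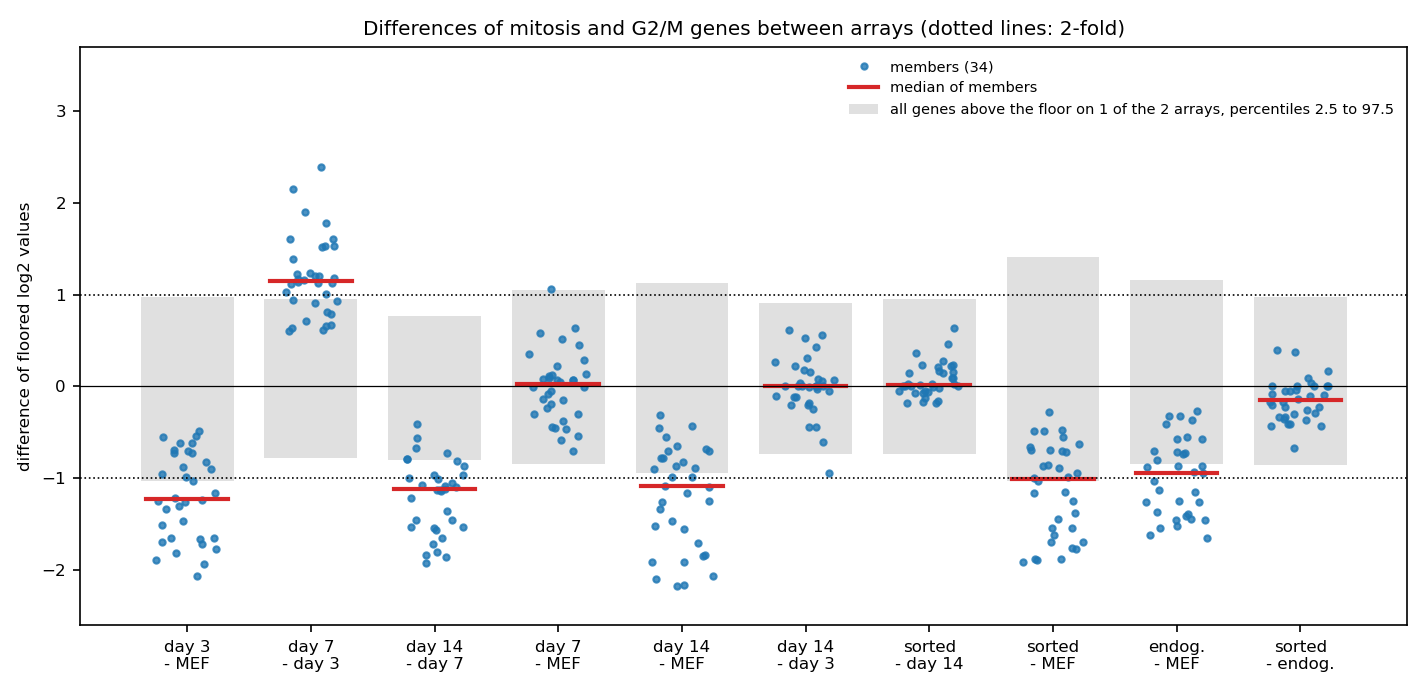
Difference of floored log2 values (y axis) for the 34 members in 10 comparisons of 2 arrays (x axis); points are genes, red bars the members' medians, grey bars the central 95% of all genes above the floor on at least 1 of the 2 arrays, and dotted lines mark 2-fold. The medians sit at -1.22, 1.15 and -1.12 in the steps from MEFs to day 3, day 7 and day 14, and at 0.02 for day 7 against MEFs.

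The promoters of genes that move together were examined for the elements named above, and a few are shown because they differ in the copies they carry. RefSeq promoter windows (GRCm38.p6, 250 bases before to 50 after the annotated start, given 5′ to 3′ on the gene's strand) were held for 28 of the 34 members; Ccna2, Foxm1, Pbk, Aurkb, Incenp and Tpx2 had none in the table. Capitals mark the CHR spelling TTTGAA, its variant TTCGAA and CCAAT, on either strand, so that TTCAAA and ATTGG are the same motifs read on the other strand.
Ccnb2 (chr9:70421505-70421804, minus strand): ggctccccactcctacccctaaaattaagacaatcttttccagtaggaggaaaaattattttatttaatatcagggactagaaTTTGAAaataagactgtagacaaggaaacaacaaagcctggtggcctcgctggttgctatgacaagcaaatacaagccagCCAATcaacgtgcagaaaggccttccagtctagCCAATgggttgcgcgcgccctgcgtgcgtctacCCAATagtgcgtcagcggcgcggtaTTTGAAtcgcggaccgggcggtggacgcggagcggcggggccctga
Cdk1 (chr10:69352863-69353162, minus strand): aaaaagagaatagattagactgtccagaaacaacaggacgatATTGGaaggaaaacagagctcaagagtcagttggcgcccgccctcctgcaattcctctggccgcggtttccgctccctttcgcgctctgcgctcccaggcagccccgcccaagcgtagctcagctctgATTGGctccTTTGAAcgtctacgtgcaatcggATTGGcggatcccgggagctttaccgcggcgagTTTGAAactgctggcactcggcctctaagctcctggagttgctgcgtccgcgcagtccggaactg
Plk1 (chr7:122159185-122159484, plus strand): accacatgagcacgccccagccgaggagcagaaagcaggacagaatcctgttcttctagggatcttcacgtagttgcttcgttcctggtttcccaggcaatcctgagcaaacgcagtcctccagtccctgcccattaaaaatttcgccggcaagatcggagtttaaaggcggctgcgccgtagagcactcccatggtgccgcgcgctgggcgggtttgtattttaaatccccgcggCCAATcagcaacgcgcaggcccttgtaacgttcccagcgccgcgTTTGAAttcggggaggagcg
Cdc20 (chr4:118437294-118437593, minus strand): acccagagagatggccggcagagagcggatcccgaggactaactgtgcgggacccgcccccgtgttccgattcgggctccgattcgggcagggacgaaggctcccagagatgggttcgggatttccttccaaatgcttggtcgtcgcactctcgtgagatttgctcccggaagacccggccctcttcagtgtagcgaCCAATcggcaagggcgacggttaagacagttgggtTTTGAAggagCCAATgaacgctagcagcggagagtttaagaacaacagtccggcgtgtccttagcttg
Top2a (chr11:99024140-99024439, minus strand): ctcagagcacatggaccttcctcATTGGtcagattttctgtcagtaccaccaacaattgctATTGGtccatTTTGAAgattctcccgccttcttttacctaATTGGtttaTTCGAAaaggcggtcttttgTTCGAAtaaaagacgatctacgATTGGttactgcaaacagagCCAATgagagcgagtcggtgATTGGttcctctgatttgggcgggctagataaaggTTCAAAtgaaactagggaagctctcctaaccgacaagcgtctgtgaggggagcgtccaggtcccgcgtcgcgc
Bub1 (chr2:127831810-127832109, minus strand): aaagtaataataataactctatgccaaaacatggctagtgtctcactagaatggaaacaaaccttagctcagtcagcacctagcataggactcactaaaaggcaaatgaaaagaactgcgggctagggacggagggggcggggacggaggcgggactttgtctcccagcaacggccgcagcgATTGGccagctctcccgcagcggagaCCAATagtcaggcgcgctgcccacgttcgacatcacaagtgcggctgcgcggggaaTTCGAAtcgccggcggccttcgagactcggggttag
Birc5 (chr11:117848987-117849286, plus strand): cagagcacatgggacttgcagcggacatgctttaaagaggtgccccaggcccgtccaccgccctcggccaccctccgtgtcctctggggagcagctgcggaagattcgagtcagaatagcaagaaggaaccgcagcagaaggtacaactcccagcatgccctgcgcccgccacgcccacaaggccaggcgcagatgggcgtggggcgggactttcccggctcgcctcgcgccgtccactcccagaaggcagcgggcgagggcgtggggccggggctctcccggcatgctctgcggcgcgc
Ccnb2 and Cdk1 each hold 2 copies of TTTGAA and 3 of CCAAT, Plk1 1 of each, and Cdc20 1 of TTTGAA between 2 CCAAT boxes. Top2a, with 2 TTTGAA, 2 TTCGAA and 6 CCAAT, is the most densely marked of the 7 shown. Bub1 carries the TTCGAA variant, 14 bases after the start, 2 CCAAT boxes and no TTTGAA, and Birc5 carries none of the 3 spellings in this window, which says only that these letters are not in it.

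Over all windows, TTTGAA was found in 23 of 28 members (82.1%) and in 5466 of 27025 genes with a window (20.2%). Of 50 other mitosis genes with a window 29 held it (58.0%), and of 32 S phase genes 4 did (12.5%). TTCGAA was in 3 members (10.7%), against 1.80% of all genes with a window. CCAAT was in 24 members (85.7%), against 41.1% of all genes with a window and 62.5% of the S phase genes with one. A gene with several windows was counted if any of them matched. A CHR spelling of either kind together with CCAAT was present in 22 of 28 members (78.6%) and in 8.61% of all genes with a window. TTTGAA beginning no more than 50 bases before the start, or after it, was held by 22 members (78.6%), 2 S phase genes (6.25%) and 5.72% of all genes with a window. The 30 TTTGAA matches in the members had a median position 5 bases after the start and ran with the gene in 24 cases and against it in 6, while the 63 CCAAT matches had a median position 68 bases before the start, 32 on the gene's strand and 31 on the other. Nek2, Birc5, Cenpe and Nuf2 held neither CHR spelling; at day 3 they were at least 1.98-, at least 1.47-, 3.71- and 3.51-fold lower than in MEFs in that order. A match is a description of the letters and no measure of binding, matches were counted whether or not they overlapped, and the list holds textbook G2/M genes, for which such elements are known.

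**Figure D3:**
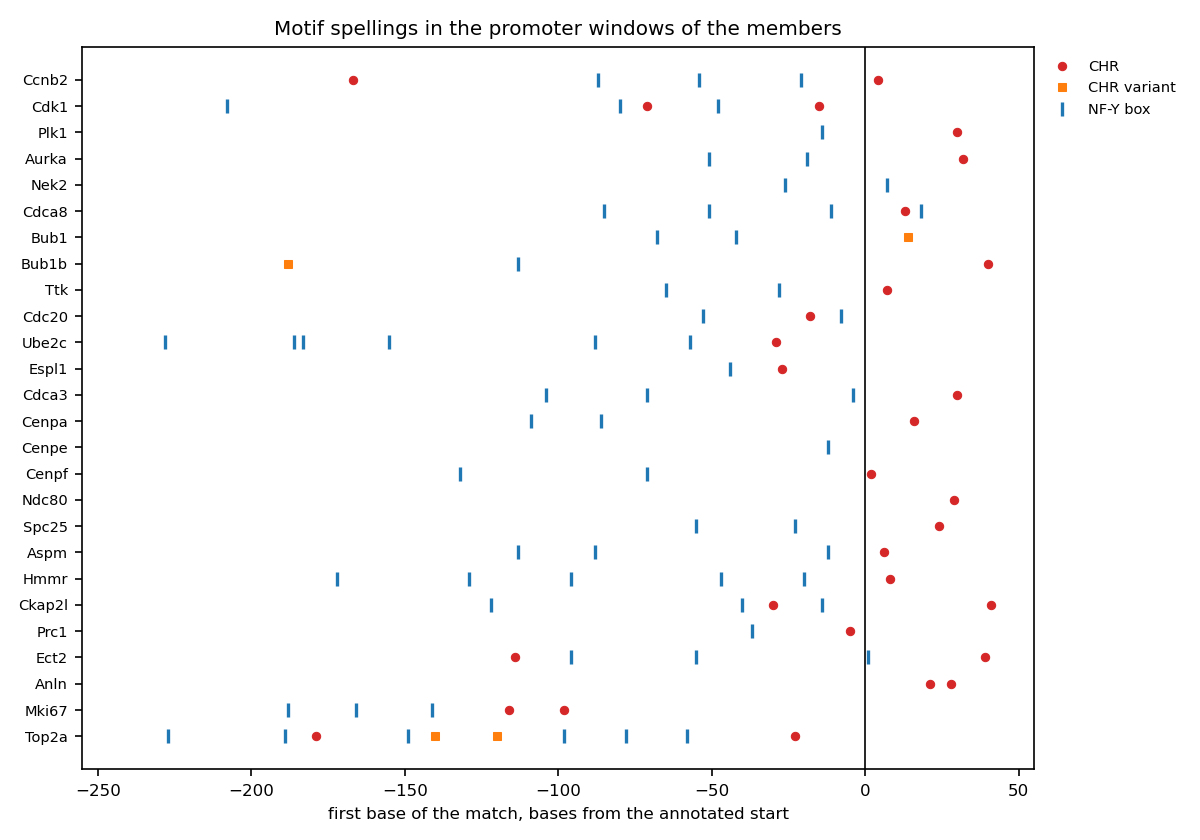
First base of each match relative to the annotated start (x axis, bases) in the promoter windows of the 26 members with at least 1 match (rows; 2 further windows, of Birc5 and Nuf2, hold none); red circles are the CHR spelling, orange squares its variant and blue bars the NF-Y box. CHR matches cluster around and after the start, with a median of 5, and NF-Y boxes before it, with a median of -68.

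The cyclins and their kinase came first in the order of events. Ccna2, the A-type cyclin of S phase and mitosis entry, read 7.91 in MEFs, 6.41 at day 3, 8.55 at day 7, 7.02 at day 14, 7.25 in the sorted cells and 7.34 on the labelled endogenous array. Ccnb2, a B-type cyclin of mitosis, read 7.94 in MEFs, 6.29 at day 3, 7.50 at day 7, 5.84 at day 14, 6.06 in the sorted cells and 6.42 on the labelled endogenous array. Cdk1, the kinase that both activate, read 7.72 in MEFs, 6.90 at day 3, 8.07 at day 7, 6.94 at day 14, 6.78 in the sorted cells and 6.98 on the labelled endogenous array. All 3 were highest in MEFs and at day 7, but the cyclins parted at the end: Ccna2 was 2.84-fold lower at day 3 than in MEFs, up 4.43-fold by day 7 and 1.85-fold lower at day 14 than in MEFs, whereas Ccnb2 was 3.14-fold lower at day 3, 2.31-fold higher at day 7 and 4.27-fold lower at day 14 than in MEFs. Cdk1 differed less, 1.76-fold lower at day 3, up 2.25-fold by day 7 and 2.20-fold lower again by day 14. Foxm1, the forkhead transcription factor that activates many of the other genes in G2, read 6.55 in MEFs, 5.94 at day 3, 6.60 at day 7, 5.73 at day 14, 5.56 in the sorted cells and 6.23 on the labelled endogenous array. It too was highest in MEFs and at day 7, within a narrower range: the differences of -0.61, 0.66 and -0.87 in the 3 steps did not reach 2-fold.

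Of the 4 mitotic kinases, Pbk spanned the widest range. Plk1, the Polo-like kinase of spindle assembly and cytokinesis, read 7.36 in MEFs, 6.41 at day 3, 7.95 at day 7, 6.50 at day 14, 6.51 in the sorted cells and 6.56 on the labelled endogenous array. Aurka, the Aurora kinase of the spindle poles, read 6.78 in MEFs, 5.91 at day 3, 6.85 at day 7, 5.80 at day 14, 6.07 in the sorted cells and 6.20 on the labelled endogenous array. Pbk, a kinase active in mitosis, read 6.52 in MEFs, 5.19 at day 3, 7.58 at day 7, 5.75 at day 14, 5.83 in the sorted cells and 5.66 on the labelled endogenous array. At day 7 Pbk was 5.26-fold above day 3, the largest difference of any member in that step, and 2.08-fold above MEFs, the only member past 2-fold in that comparison. Plk1 was 1.93-fold lower at day 3 than in MEFs, 2.90-fold higher at day 7 and 2.73-fold lower at day 14 than at day 7. Nek2, a kinase of centrosome separation, read 6.00 in MEFs, 4.73 at day 3, 5.80 at day 7, 4.86 at day 14, 4.74 in the sorted cells and 5.05 on the labelled endogenous array. Its readings at day 3, day 14 and in the sorted cells were under the floor, so that its fold against MEFs at day 3 can be given only as at least 1.98. Against MEFs, Plk1, Aurka and Pbk were 1.82-, 1.98- and 1.71-fold lower at day 14 and Nek2 at least 1.98-fold, with an unfloored difference of -1.14.

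The chromosomal passenger complex, which corrects faulty spindle attachments and guides cytokinesis, was read close to the floor in 2 of its 4 genes. Aurkb, its kinase, read 7.01 in MEFs, 5.77 at day 3, 7.30 at day 7, 6.30 at day 14, 6.53 in the sorted cells and 6.13 on the labelled endogenous array. Incenp, its scaffold, read 6.17 in MEFs, 5.55 at day 3, 6.26 at day 7, 5.86 at day 14, 5.68 in the sorted cells and 5.76 on the labelled endogenous array. Birc5 (survivin), which targets it to centromeres, read 5.57 in MEFs, 4.52 at day 3, 5.69 at day 7, 4.54 at day 14, 4.47 in the sorted cells and 4.54 on the labelled endogenous array. Cdca8 (borealin), which binds Birc5, read 5.71 in MEFs, 4.62 at day 3, 5.83 at day 7, 4.97 at day 14, 4.63 in the sorted cells and 4.77 on the labelled endogenous array. On the floored scale Aurkb alone reached 2-fold, at 2.35-fold lower at day 3 and 2.88-fold higher at day 7, and its difference of -0.999 from day 7 to day 14 stood just short of the threshold. Birc5 was under the floor on the 4 low arrays and Cdca8 on the same 4, which bounds their differences: without a floor, Birc5 gave -1.05, 1.17 and -1.14 in the 3 steps in place of -0.55, 0.68 and -0.68. Incenp had the smallest difference of any member at day 14, -0.41 against day 7 and -0.31 against MEFs.

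All 3 spindle checkpoint kinases were at least 2-fold lower at day 3 than in MEFs. Bub1, which recruits the checkpoint proteins to kinetochores, read 6.47 in MEFs, 4.94 at day 3, 6.54 at day 7, 4.94 at day 14, 5.03 in the sorted cells and 5.45 on the labelled endogenous array. Ttk (Mps1), which starts the signal, read 6.99 in MEFs, 5.27 at day 3, 6.40 at day 7, 5.44 at day 14, 5.36 in the sorted cells and 5.53 on the labelled endogenous array. Bub1b (BubR1), part of the inhibitor of the APC/C, read 6.16 in MEFs, 5.13 at day 3, 6.16 at day 7, 5.08 at day 14, 4.90 in the sorted cells and 4.95 on the labelled endogenous array. Ttk was 3.28-fold lower at day 3 and 2.93-fold lower at day 14 than in MEFs, and it did not return fully at day 7, with a difference of -0.58 from MEFs. Bub1 was at least 2.75-fold lower at day 3 and at least 2.89-fold lower at day 14 than at day 7, and its day 7 value lay 0.07 above MEFs. Bub1b read nearly the same in MEFs and at day 7, at 6.16 on both.

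Of the 4 genes of protein destruction and sister separation, Cdc20 alone reached 2-fold in all 3 steps. Cdc20, the mitotic activator of the APC/C, read 6.89 in MEFs, 5.73 at day 3, 6.89 at day 7, 5.79 at day 14, 6.02 in the sorted cells and 6.02 on the labelled endogenous array. Ube2c, the ubiquitin-conjugating enzyme that works with it, read 6.31 in MEFs, 5.59 at day 3, 6.83 at day 7, 5.86 at day 14, 6.03 in the sorted cells and 5.99 on the labelled endogenous array. Espl1 is separase, the protease that cuts cohesin. Espl1 ran from 4.95 on the labelled endogenous array to 5.80 at day 7, with differences of -0.53, 0.61 and -0.72 in the 3 steps. Cdca3, an adaptor for destruction of the Cdk1 inhibitor Wee1, ran from 4.34 at day 3 to 5.63 at day 7. Cdc20 was 2.24-fold lower at day 3, 2.23-fold higher at day 7 and 2.13-fold lower at day 14, each against the array before it, and stood at 6.89 in MEFs and at day 7 alike. Ube2c gained 2.36-fold between day 3 and day 7, where it stood 0.52 above MEFs, and its difference from MEFs at day 14 was -0.45.

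Centromere and kinetochore genes gave some of the largest differences. Cenpe, the kinetochore motor that moves chromosomes to the spindle equator, read 7.96 in MEFs, 6.07 at day 3, 7.25 at day 7, 5.89 at day 14, 6.04 in the sorted cells and 6.34 on the labelled endogenous array. Nuf2, a subunit of the Ndc80 complex that holds microtubules, read 7.99 in MEFs, 6.18 at day 3, 8.08 at day 7, 6.15 at day 14, 6.10 in the sorted cells and 6.54 on the labelled endogenous array. Ndc80 itself read 7.59 in MEFs, 6.38 at day 3, 7.29 at day 7, 5.43 at day 14, 5.90 in the sorted cells and 6.34 on the labelled endogenous array. Nuf2 was 3.51-fold lower at day 3 than in MEFs, 3.73-fold higher at day 7 and 3.79-fold lower at day 14, and so returned to its MEF level and left it again. Ndc80 behaved unlike its partner at the end: its difference between day 3 and day 14 was -0.95, the largest difference of any member between these low arrays, and at day 14 it was 4.47-fold below MEFs. Cenpe was 3.71-fold lower at day 3 and 4.19-fold lower at day 14 than in MEFs, and its difference from MEFs at day 7, -0.71, was the lowest among the members. Spc25, another subunit of the same complex, read 6.59 in MEFs, 5.69 at day 3, 6.82 at day 7, 5.69 at day 14, 5.56 in the sorted cells and 5.18 on the labelled endogenous array. Cenpf, a large kinetochore protein of G2 and M, read 6.81 in MEFs, 5.05 at day 3, 6.27 at day 7, 5.48 at day 14, 5.43 in the sorted cells and 5.69 on the labelled endogenous array. Cenpa, the histone H3 variant that marks centromeres, read 6.56 in MEFs, 5.87 at day 3, 7.01 at day 7, 5.88 at day 14, 5.87 in the sorted cells and 6.20 on the labelled endogenous array. Cenpf was 3.40-fold lower at day 3, while Cenpa and Spc25, at 1.61- and 1.87-fold lower, did not reach 2-fold in that step but did from day 3 to day 7 (2.20- and 2.18-fold) and from day 7 to day 14 (2.19- and 2.18-fold).

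Spindle proteins were 2-fold lower at day 14 than at day 7 in 4 of 4 cases. Hmmr, a spindle assembly factor, read 6.94 in MEFs, 4.91 at day 3, 6.80 at day 7, 5.24 at day 14, 5.40 in the sorted cells and 5.50 on the labelled endogenous array. Tpx2, the activator of Aurka on spindle microtubules, read 8.42 in MEFs, 7.70 at day 3, 8.34 at day 7, 7.26 at day 14, 7.25 in the sorted cells and 7.48 on the labelled endogenous array. Aspm, which focuses spindle poles and is mutated in microcephaly, read 6.27 in MEFs, 4.99 at day 3, 6.13 at day 7, 4.52 at day 14, 5.38 in the sorted cells and 5.55 on the labelled endogenous array. Hmmr was at least 3.81-fold lower at day 3 than in MEFs and up at least 3.44-fold by day 7, since its day 3 reading was under the floor. Tpx2 was 1.65-fold lower at day 3, 1.56-fold higher at day 7 and 2.12-fold lower at day 14. Ckap2l, a spindle pole protein, ran from 4.51 in the sorted cells to 6.26 in MEFs and was under the floor on the 4 low arrays.

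The 3 midzone and cytokinesis genes and both chromosome structure genes were all at least 2-fold lower at day 3 than in MEFs. Prc1, which bundles the microtubules of the central spindle, read 8.22 in MEFs, 6.55 at day 3, 7.76 at day 7, 6.30 at day 14, 6.34 in the sorted cells and 6.67 on the labelled endogenous array. Ect2, the exchange factor that activates RhoA at the cell equator, read 8.31 in MEFs, 7.01 at day 3, 7.94 at day 7, 6.40 at day 14, 6.55 in the sorted cells and 6.95 on the labelled endogenous array. Anln (anillin), the scaffold of the contractile ring, read 7.94 in MEFs, 6.24 at day 3, 7.64 at day 7, 6.42 at day 14, 6.24 in the sorted cells and 6.29 on the labelled endogenous array. At day 14 Prc1 and Ect2 were each 3.76-fold lower than in MEFs and Anln 2.86-fold lower; their differences from MEFs at day 7 were -0.46, -0.37 and -0.30. Mki67, the antigen Ki-67 that coats mitotic chromosomes and is used to count dividing cells, read 9.31 in MEFs, 7.24 at day 3, 8.85 at day 7, 7.14 at day 14, 7.77 in the sorted cells and 8.06 on the labelled endogenous array. Top2a, the topoisomerase that untangles sister chromatids, read 8.51 in MEFs, 6.86 at day 3, 8.47 at day 7, 6.66 at day 14, 6.76 in the sorted cells and 7.12 on the labelled endogenous array. Mki67 gave the largest difference of any member from MEFs, 4.19-fold lower at day 3 and 4.51-fold lower at day 14, and Top2a was 3.15-fold lower at day 3, 3.05-fold higher at day 7 and 3.50-fold lower at day 14 than at day 7. By role, the median difference between MEFs and day 3 ran from -1.86 for chromosome structure and -1.66 for the midzone to -0.66 for the passenger complex, -0.63 for destruction and sister separation and -0.61 for Foxm1. The floor sets part of that low end: without it the passenger median was -1.07 and the destruction median -0.94, while the other values named were the same.

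Day 7 was then set directly against MEFs. Of the 34 members, 17 read higher and 17 lower at day 7, with a median of 0.02. Only Pbk was at least 2-fold higher, where 1.7% of all genes were, and 0 were at least 2-fold lower, where 0.843% were. The differences of 11 members exceeded the technical spread of 0.38. Besides Pbk, Ccna2 (0.64), Plk1 (0.59), Ube2c (0.52) and Cenpa (0.45) were higher at day 7 and Cenpe (-0.71), Ttk (-0.58), Cenpf (-0.54), Prc1 (-0.46), Mki67 (-0.46) and Ccnb2 (-0.44) were lower. The even split depended on the scaling: with the arrays centred on 22 housekeeping genes, 5 of 34 members read higher at day 7 and the median was -0.344, and Cenpe then passed 2-fold in place of Pbk. MEFs and day 7 remained the 2 highest arrays for 34 of 34 members under that centring and under quantile normalization.

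The pair of low unsorted stages, day 3 and day 14, was compared in addition, after the values had been seen. A total of 16 members read lower at day 14 before flooring, or 26 under housekeeping centring, where the median was -0.15. Without that centring, and with the floor, 14 were lower and 14 higher and the median difference was 0. Of the 34 members 0 passed 2-fold in either direction, against 1.07% of all genes higher and 0.482% lower. Ndc80 (-0.95), Ect2 (-0.61), Ccnb2 (-0.44) and Tpx2 (-0.44) were the members with the lowest day 14 readings relative to day 3, and Ccna2 (0.62), Pbk (0.56) and Aurkb (0.53) those with the highest. Both these arrays were also set against MEFs, which they share. At day 14, 18 members were at least 2-fold lower than in MEFs and 0 higher, against 1.26% of all genes lower, with a median of -1.09 from -2.17 for Mki67 to -0.31 for Incenp. Under housekeeping centring 28 members were at least 2-fold lower at day 14 than in MEFs, against 5% of all genes under the same centring.

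The sorted GFP-positive cells gave values close to the unsorted day 14 stage. Before flooring, 18 of the 34 members read higher after sorting. With the floor 18 were higher and 12 lower, the median difference was 0.02, and 0 passed 2-fold, against 1.26% of all genes higher and 0.609% lower. The differences of 3 members exceeded the technical spread of 0.33: Mki67 (0.63), Ndc80 (0.47) and Aspm (at least 0.37, its unsorted value being under the floor). Under housekeeping centring, which moves this comparison by 0.34, 32 of 34 read higher after sorting and the median was 0.334. Against MEFs, 17 members were at least 2-fold lower in the sorted cells and 0 higher, against 1.64% of all genes lower. Cenpe, Nuf2, Prc1 and Ccnb2 were 3.78-, 3.71-, 3.68- and 3.67-fold lower there. The summed macrophage markers were 8.56 in the sorted cells and 9.38 in the unsorted ones, and the neuron markers 9.89 and 9.29.

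On the labelled endogenous array, 16 members were at least 2-fold lower than in MEFs and 0 higher, against 0.969% of all genes lower. The median was -0.94, from -1.65 for Anln to -0.26 for Cdca3. Cenpe was 3.08-fold lower, Prc1 2.92-fold and Ccnb2 2.87-fold. Before flooring, 28 of 34 members read higher on that array than in the sorted cells. With the floor 24 were lower in the sorted cells and 6 higher, and the rest did not differ. The median difference (sorted minus labelled endogenous) was only -0.15, and 0 passed 2-fold, against 1.36% of all genes higher and 1.14% lower. Foxm1 (-0.68) and Ndc80 (-0.43) were among those lower in the sorted cells, and Aurkb (0.40) and Spc25 (0.38) were higher there. The macrophage markers summed to 11.1 on the labelled endogenous array and 10.8 in MEFs, and their part in the result was not tested.

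Other cell cycle genes were counted from wider lists. Of 58 other mitosis genes measured, 24 were at least 2-fold lower at day 3 than in MEFs (median -0.80), 17 gained at least 2-fold from day 3 to day 7 (0.78) and 24 at least 2-fold lower at day 14 than at day 7 (-0.92). Kif11, the motor that separates spindle poles, gave -1.70, 1.68 and -1.65 in these steps, Mastl, the Greatwall kinase, -1.83, 1.03 and -1.64, and Kif23, a central spindle motor, -1.61, 1.54 and -1.79, the last bounded by the floor, under which its day 14 reading lay. Not every gene of that list followed: Cdc25b, a phosphatase that activates Cdk1, read 5.96 in MEFs and 7.27 in the sorted cells. The 36 S phase genes gave smaller differences, with medians of -0.51, 0.52 and -0.58 and 4 lower, 9 higher and 4 lower past 2-fold. Those counts were 11.1%, 25% and 11.1% of the S phase genes, and 41.4%, 29.3% and 41.4% of the other mitosis genes passed. Of all genes, 1.64%, 1.3% and 0.825% passed in the same directions. Prim1, the catalytic subunit of primase, was the S phase gene with the largest difference at day 3, at -1.62, and Rrm2, of the ribonucleotide reductase, gave -0.66, 1.24 and -1.05.

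The lists of G1, APC/C and DREAM genes had medians near 0. The 11 G1 cyclins and kinases had medians of -0.04, 0.15 and 0.05, the 15 APC/C subunits and regulators 0.05, 0.11 and -0.04, and the 10 DREAM and MuvB genes -0.11, 0.15 and -0.10, with 0 genes past 2-fold in any of the 3 steps. Mybl2 (B-Myb), the activating partner of MuvB, differed by -0.52, 0.50 and 0.02, and so did not drop with the members at day 14. Among 18 CDK inhibitors and exit genes the medians were -0.02, 0.17 and -0.05. In that list Cdkn1c (p57) was higher at day 3 by 1.36 and lower at day 14 than at day 7 by a difference of -1.51, Gas1, a growth arrest gene, gave -1.64 in that last step, and Btg2, an antiproliferative gene, 1.16. Cdkn1a (p21), which inhibits cyclin-dependent kinases, read 10.43 in MEFs, 10.85 at day 3, 10.48 at day 7, 11.09 at day 14, 11.35 in the sorted cells and 10.88 on the labelled endogenous array. Cdkn1a was singled out after its values were seen, and other genes of the list ran with the members: Cdkn2c (p18) gave -0.84 (bounded by the floor), at least 1.05 and -0.91 in the 3 steps, Rbl1 (p107) -0.81, 0.55 and -0.76, and Wee1, a kinase that inhibits Cdk1, -0.45, 0.64 and -0.56.

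**Figure D4:**
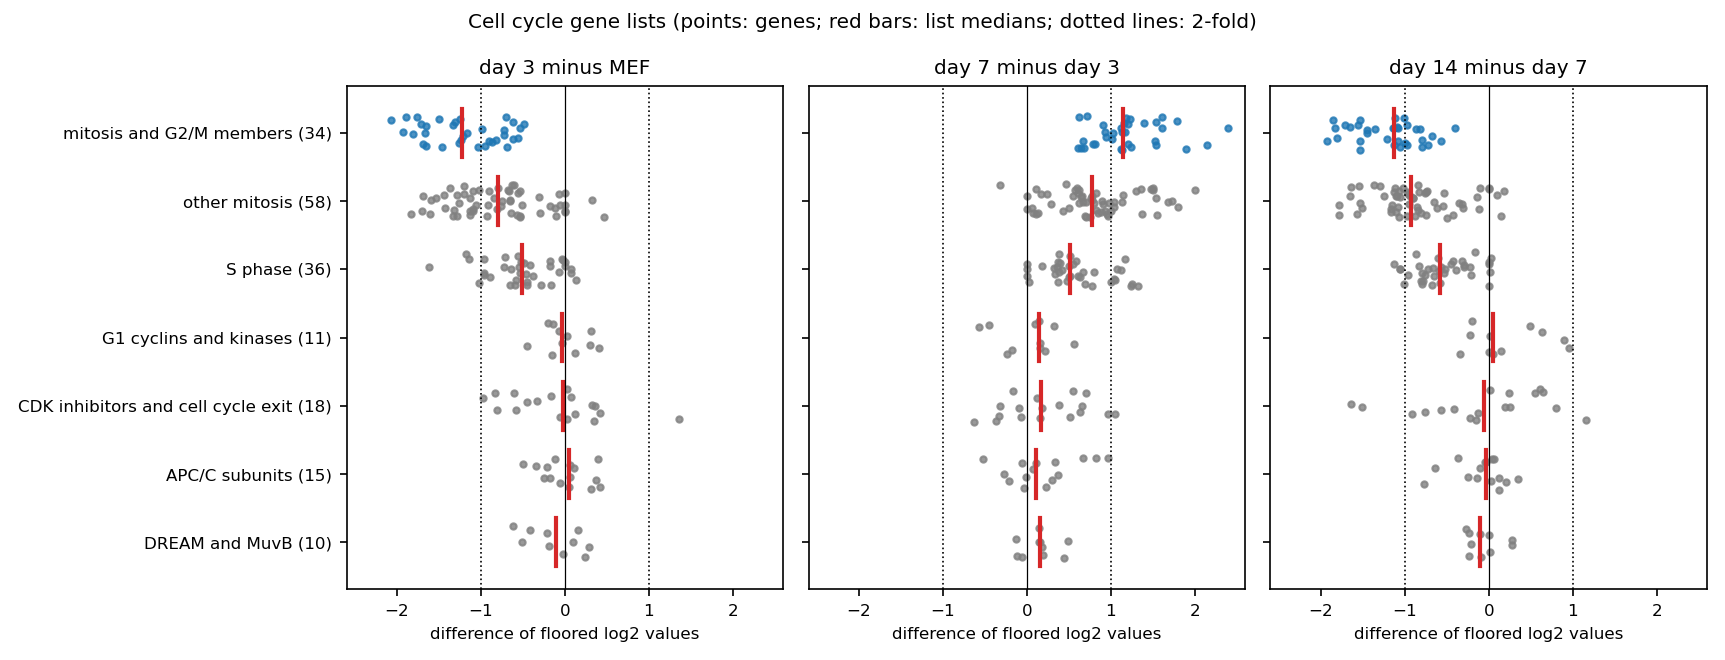
Difference of floored log2 values (x axis) for the members and 6 other cell cycle lists (rows, number of genes measured in brackets) in the 3 steps (panels); points are genes, red bars list medians and dotted lines 2-fold. The members and the other mitosis genes shift left, right and left again (medians -1.22, 1.15 and -1.12 for the members), the S phase genes less, and the G1, APC/C, and DREAM and MuvB lists stay near 0.

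Scaling bears on all these values, since it moves every gene of an array together. Centring on the housekeeping genes shifted each difference by -0.23 from MEFs to day 3, -0.14 from day 3 to day 7 and -0.14 from day 7 to day 14, and the members' medians became -1.45, 1.01 and -1.25. The split of all genes past 2-fold moved more: from 318 higher and 363 lower to 209 and 641 at day 3 against MEFs, from 288 and 117 to 205 and 210 at day 7 against day 3, and from 134 and 183 to 89 and 254 at day 14 against day 7. For day 7 against MEFs it went from 376 higher and 187 lower to 197 and 707, for day 14 against MEFs from 466 and 279 to 171 and 1109, and for day 14 against day 3 from 238 and 107 to 104 and 304. For the sorted cells it went from 280 and 135 to 765 and 51 against day 14, and from 814 and 364 to 592 and 554 against MEFs, and for the labelled endogenous array against MEFs from 473 and 215 to 356 and 342. In the same 3 steps, 25, 17 and 25 members passed 2-fold under that centring, all in the direction given above.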

How the data were processed

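The 6 samples were biotin-labelled from 6 ug of total RNA each, per the labels' protocols, and hybridised to Affymetrix arrays. The authors deposited log2 intensities, 1 column per array, made with Affymetrix Expression Console per the submitters' processing notes; its version, the summary algorithm and the genome build behind the annotation were not given in the sources used here. The deposited scale was kept. The number of arrays limits the precision, since each group has 1. Of 41345 probe sets in the deposited table, 5333 were controls and were left out; by the platform annotation 23521 had a single gene symbol and 1814 several, and only the former were named, which left 22180 genes after the brightest probe set of each was taken. The Entrez numbers of all 34 members matched the RefSeq table under the same symbol. Every column had a sample; 0 had none.

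Values under the floor (percentile 50 of all probe sets other than controls) were raised to it, and differences were taken between arrays with Python 3.11.15, numpy 2.4.6 and pandas 2.3.3; figures used matplotlib 3.10.9. The counting was checked on simulated data. All members found were named, and up to 4 genes with the largest differences of each other list in a comparison, plus genes singled out after their values were seen (Cdc25b, Cdkn1a, Rbl1, Wee1 and the markers Thy1 and Col1a2); the 10 genes of no list nearest to the members' median profile, by root mean square distance among genes with a range of at least 1 log2 unit, were named as well. The members, lists and comparisons were chosen with earlier results of these data known, and the comparison of day 14 with day 3 was added after seeing the data. Alternatives were quantile normalization, centring on housekeeping genes, the mean of a gene's probe sets, no floor, a floor at percentile 75, and thresholds of 4-fold and 1.5-fold.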

Additional observations from a re-analysis of the deposited data

How the results depend on the processing

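Over the 10 comparisons, 156 of 190 alternative values of the members' medians and counts stayed close to the value reported and 34 moved. A median was called close when it changed by less than the technical spread. A count was called close when it was equal to the reported one or within a ratio of 1.5 of it. Counts of 0 in both settings were therefore called close, so the 156 is not a measure of stability. Every median beyond its technical spread kept its sign, but the median for day 7 against MEFs, 0.0241, became -0.0143 under quantile normalization and -0.344 under housekeeping centring, and that for day 14 against day 3, 0, became -0.15 under the latter. Quantile normalization, the mean of a gene's probe sets and the absence of a floor moved no median or count past those limits, although values within them did change. Every member had 1 probe set, so the mean of a gene's probe sets could not move them. A floor at percentile 75, under which 27 to 29 of 34 members lay on the 4 low arrays, shrank the medians to -0.265 for day 3 against MEFs, 0.284 for day 7 against day 3 and -0.284 for day 14 against day 7, and to -0.265 against MEFs for day 14, for the sorted cells and for the labelled endogenous array. It left 10 members lower, 8 higher and 10 lower in the 3 steps, 10, 10 and 9 lower against MEFs in the last 3 comparisons, and 0 higher at day 7 against MEFs. Of all genes, 0.825%, 0.708% and 0.397% passed in the same directions in the 3 steps under that floor. In the last 3 comparisons 0.631%, 0.911% and 0.451% were lower, and 1.01% were higher at day 7 against MEFs. With a 4-fold threshold, 1 member was lower at day 3 than in MEFs, 2 were higher at day 7 than at day 3, 0 were lower at day 14 than at day 7, 0 were higher at day 7 than in MEFs, and 4, 0 and 0 were lower than in MEFs at day 14, in the sorted cells and on the labelled endogenous array. With a 1.5-fold threshold, 31 were lower at day 3, and 30, 29 and 26 were lower than in MEFs on those last 3 arrays. At 1.5-fold, day 7 against MEFs gave 3 higher and 1 lower, sorted against unsorted day 14 gave 1 higher, sorted against labelled endogenous gave 1 lower, and day 14 against day 3 gave 1 higher and 2 lower. The share of all genes past 4-fold or 1.5-fold was not computed, so the member counts at these thresholds have no background beside them. Centring on housekeeping genes gave 0 higher and 1 lower at day 7 against MEFs, 28 lower at day 14 against MEFs and 1 lower at day 14 against day 3. Under that centring 0.888% of all genes were higher and 3.19% lower at day 7 against MEFs. At day 14, 5% of all genes were lower against MEFs and 1.37% against day 3. Of 510 alternative values of single members in the 3 steps, 82 moved beyond the technical spread, 74 with the higher floor and 8 without a floor, and none changed direction. The 102 values from the mean of probe sets could not move. Another 102 came from housekeeping centring, whose shifts of -0.23, -0.14 and -0.14 were smaller than the technical spreads of 0.32, 0.33 and 0.28. That these 2 settings moved no value is therefore no sign of stability. Low signal is the limit for Birc5, Cdca8 and Ckap2l, above the floor on 2 arrays, Nek2, on 3, and Bub1, Bub1b, Cdca3 and Aspm, on 4. No paired analysis was possible because each group holds 1 array.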

Other observations

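Genes outside every list whose profile over the 6 arrays lay nearest to the members' median profile were also named. Ranked with the list genes among 2561 genes with a range of at least 1 log2 unit, the 10 nearest outside the lists held ranks 2 to 33; they were Ticrr, Asf1b, Cdkn3, Hmgb2, Zfp948, Btbd35f2, Diaph3, Prr11, Elovl6 and Gm10923, at root mean square distances of 0.0729 to 0.179 log2 units. Ticrr, a factor for the firing of replication origins, read 6.30 in MEFs, 4.84 at day 3, 6.19 at day 7, 5.13 at day 14, 5.33 in the sorted cells and 5.36 on the labelled endogenous array. Asf1b, a histone chaperone, read 6.44, 5.63, 6.63, 5.57, 5.76 and 5.74 on the same arrays in the same order. Elovl6, a fatty acid elongase, read 8.21, 7.12, 8.44, 7.28, 7.69 and 7.41. Among the 100 nearest genes were 15 members, 27 other mitosis genes, 11 S phase genes, 2 genes of other lists and 45 of no list. The members make up the profile they were compared with, so their place among the nearest is no result.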
